A study of Mus musculus with 4 samples.

Results

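The 10 genes described here are *Cirbp*, *Rbm3*, *Hspa1a*, *Hspa1b*, *Hsp90aa1*, *Dnajb1*, *Hspa8*, *Hsph1*, *Hspb1* and *Hspa5*, a named set of cold-inducible RNA-binding and heat shock genes. They were matched by symbol to the Entrez identifiers of the gene tables, and 10 of 10 were found among the 17667 genes listed in at least 1 library. RNA-seq was performed on sympathetic ganglia (SG) from thoracic levels T1–T4 of C57BL/6 mice aged 12 weeks, all cold-challenged for 1 day at 5 °C, with each library pooled from several male mice. There were 4 libraries. Wild-type mice gave 2 pools, WT_1 and WT_2. Mice haploinsufficient for TRKC, the receptor for neurotrophin-3 (NT-3) encoded by *Ntrk3*, gave 1 pool, TRKC+/-. Mice carrying an NT-3 transgene (*Ntf3*) under the adiponectin promoter, which is active in adipocytes and not in neurons, gave 1 pool, AdNTF3-Tg. Every pool had been in the cold, so no level here compares cold with warmth. The study gave each mutant its own WT control pool, but the labels number the WT pools without saying which belongs to which mutant. Names of the deposited tables do refer to cohorts, but samples were grouped by their labels alone. Each mutant was therefore set beside both, and only 1 of its 2 ratios is that to its own control. Which ratio that is was not settled here. In the other ratio, and in fits over both WT pools, genotype and cohort cannot be told apart.

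CIRBP and RBM3 are closely related glycine-rich proteins with an RNA recognition motif, and both are known to accumulate when cells are mildly cooled. Heat shock proteins are chaperones that hold or refold unfolded proteins. Heat shock factor 1 induces many of their genes in stressed cells by binding repeats of a short element in the promoter, whereas constitutive members such as HSC70 (*Hspa8*) are abundant in unstressed neurons. HSP70 proteins work in a cycle of ATP hydrolysis, started by J-domain proteins and reset by nucleotide exchange factors, and BiP (*Hspa5*) does this work in the endoplasmic reticulum.

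Promoter windows of 7 of the 10 genes, 10 windows in all, were found in RefSeq sequence of build GRCm38.p6, from 250 bases before to 50 after each gene start. *Rbm3*, *Hsp90aa1* and *Hspa8* had no entry. The windows below were chosen because they hold the letters of a temperature or stress element, or because they show how alike *Hspa1a* and *Hspa1b* are. Each is printed 5′ to 3′ on the strand of the gene, and capitals mark TCCCCGCC, a mild cold response element, in *Cirbp*, the paired heat shock element units GAANNTTC in *Hspa1a*, *Hspa1b* and *Hspb1*, and the endoplasmic reticulum stress element in *Hspa5*. The *Cirbp* bases are chr10:80167589-80167838 (plus strand), those of *Hspa1a* chr17:34972157-34972406 (minus strand), those of *Hspa1b* chr17:34959239-34959488 (minus strand), those of *Hspb1* chr5:135887669-135887918 (plus strand) and those of *Hspa5* chr2:34771840-34772089 (plus strand). All lie directly before the annotated gene start.
Cirbp: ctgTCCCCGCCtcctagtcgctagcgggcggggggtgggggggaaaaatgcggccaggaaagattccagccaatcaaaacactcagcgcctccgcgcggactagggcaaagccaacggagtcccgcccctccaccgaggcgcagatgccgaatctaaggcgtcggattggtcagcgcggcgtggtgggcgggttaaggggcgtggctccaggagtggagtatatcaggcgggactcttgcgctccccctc
Hspa1a: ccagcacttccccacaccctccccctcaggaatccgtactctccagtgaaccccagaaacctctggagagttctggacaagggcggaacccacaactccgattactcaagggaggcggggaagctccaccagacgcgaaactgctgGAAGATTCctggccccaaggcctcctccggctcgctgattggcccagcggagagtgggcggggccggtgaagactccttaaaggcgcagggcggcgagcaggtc
Hspa1b: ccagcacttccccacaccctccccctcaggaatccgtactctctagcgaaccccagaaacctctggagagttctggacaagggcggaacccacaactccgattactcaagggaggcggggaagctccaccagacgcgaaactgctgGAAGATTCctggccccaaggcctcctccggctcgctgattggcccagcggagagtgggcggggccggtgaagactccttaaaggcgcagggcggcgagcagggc
Hspb1: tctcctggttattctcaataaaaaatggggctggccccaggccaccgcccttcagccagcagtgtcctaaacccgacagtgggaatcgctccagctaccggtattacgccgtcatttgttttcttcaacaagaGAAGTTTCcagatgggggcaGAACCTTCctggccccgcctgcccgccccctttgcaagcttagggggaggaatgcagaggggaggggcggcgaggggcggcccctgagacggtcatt
Hspa5: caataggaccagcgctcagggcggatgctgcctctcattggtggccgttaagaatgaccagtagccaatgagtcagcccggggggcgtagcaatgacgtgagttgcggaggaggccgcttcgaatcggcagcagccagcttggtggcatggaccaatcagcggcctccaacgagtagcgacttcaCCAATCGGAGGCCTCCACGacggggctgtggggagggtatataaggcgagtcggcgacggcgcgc

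*Hsph1* held 3 alternating heat shock element units just after its gene start, at chr5:149636287-149636311 (minus strand), again in capitals.
Hsph1: aatgctgcagaTTCTGGAAAGTTCt

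*Cirbp*, *Dnajb1* and *Hsph1* each had 2 windows, from different annotated starts. The letters GAANNTTC were in 5 of the 10 windows (those of *Hspa1a*, *Hspa1b* and *Hspb1* and both of *Hsph1*), against 7.86% of all 32851 windows, and TTCNNGAA in 2 (both of *Hsph1*), against 8.52%. Both read the same on either strand. The 3-unit element, which contains these pairs, was in both *Hsph1* windows and in 0.603% of all windows, and the endoplasmic reticulum stress element in the *Hspa5* window and in 0.119%. The *Hsph1* windows overlap, and those of *Hspa1a* and *Hspa1b* are near copies. TCCCCGCC, on either strand, was in 4 of the 10 windows (1 of the 2 of *Cirbp*, 1 of the 2 of *Dnajb1*, and those of *Hspa1a* and *Hspa1b*), against 5.38%, and TATAAA in 0, against 13.6%. The *Cirbp* window printed is the one that holds TCCCCGCC, and its other window does not. A match describes the letters of a window and not a bound site. The *Hspa1a* and *Hspa1b* windows differed at 4 of 300 positions, counted from the 5′ end with the *Hspa1a* base first, namely C44T, T47C, T249G and C276T.

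The same likeness runs through the transcripts, and it limits what can be said of *Hspa1a* and *Hspa1b*, the pair of stress-inducible HSP70 genes that lie next to each other. Their coding sequences were 99.43% identical, and 66.8% of the 50-base stretches of the longest *Hspa1a* transcript also occurred in a transcript of another gene, mostly *Hspa1b*. The reverse share was 62.3% for *Hspa1b*. Their expected counts were fractional, so reads were divided between them, and each is reported as uncertain, with their sum beside it. *Hspb1* shared 43.2% of its stretches with a single other gene model, *Gm9817*, and its reads were whole. The other 7 genes shared at most 0.542%. Only protein-coding transcripts were compared, on NCBIM37.

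The libraries held between 8665955 and 8894985 reads on genes, so depth was nearly equal. *Ntrk3* was not lower in the library labelled TRKC+/-, with 78 reads (2.45 FPKM, reads per unit of gene length and sequencing depth) in WT_1, 83 (2.52) in WT_2, 91 (2.72) in TRKC+/- and 76 (2.32) in AdNTF3-Tg. The part of *Ntrk3* that the allele removes is not given in the labels. In a measure apart from these libraries, the study reported reduced *Trkc* (*Ntrk3*) expression in SG of TRKC+/- mice relative to WT littermates. Below, TRKC+/- and AdNTF3-Tg stand for the libraries so labelled, and every direction drawn from the first rests on its label. *Ntf3* was listed only in the library labelled TRKC+/-, with 2 reads. The markers of sympathetic neurons (14 genes) summed to between 11066 and 11726 FPKM, while skeletal muscle markers summed to 115 in WT_1, 4.41 in WT_2, 53.1 in TRKC+/- and 39.6 in AdNTF3-Tg, and *Myh1*, *Casq1* and *Pvalb* were not listed in WT_2. Adipocyte markers, of which 12 of 12 were listed, summed to 523, 442, 332 and 374 FPKM in the same order, satellite glia markers to between 2117 and 2449, Schwann cell markers to between 716 and 770, macrophage markers to between 222 and 315, endothelial markers to between 47.3 and 55.0, and sensory neuron markers to between 233 and 250. Most of the sensory neuron sum was *Avil* (200.6, 200.4, 194.7 and 207.0 FPKM in the same order). *Scn10a*, *Trpv1*, *Mrgprd*, *Prdm12* and *Isl2* stayed below 1 FPKM. Over the 7 sensory genes listed in all 4 libraries, median log2 ratios to the WT pools were -0.38 in TRKC+/- and 0.50 in AdNTF3-Tg. Of these genes, 2 were above both WT pools and 5 below in TRKC+/-, and 6 above and 0 below in AdNTF3-Tg. Blood markers summed to between 74.1 and 180.5 FPKM. In bulk ganglia, fewer cells of a type and less RNA per cell cannot be told apart, and the part of these cell types in the members' levels was not tested.

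The 10 genes took between 0.707% and 0.717% of all reads in every library, most of it from the constitutive chaperones. *Hspa8* was the 10th most abundant of the 15275 genes listed in all 4 libraries by mean FPKM, *Hsp90aa1* the 58th and *Hspa5* the 262nd. *Hspb1* (rank 563) and *Rbm3* (583) overlapped in their range over libraries, as did *Dnajb1* (2983) and *Cirbp* (3369), and *Hspa1a* (7604) and *Hspa1b* (8024) were the least abundant. The coefficient of variation over the 4 libraries ran from 0.79% for *Hspa8* to 20.63% for *Rbm3*.

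**Figure D1:**
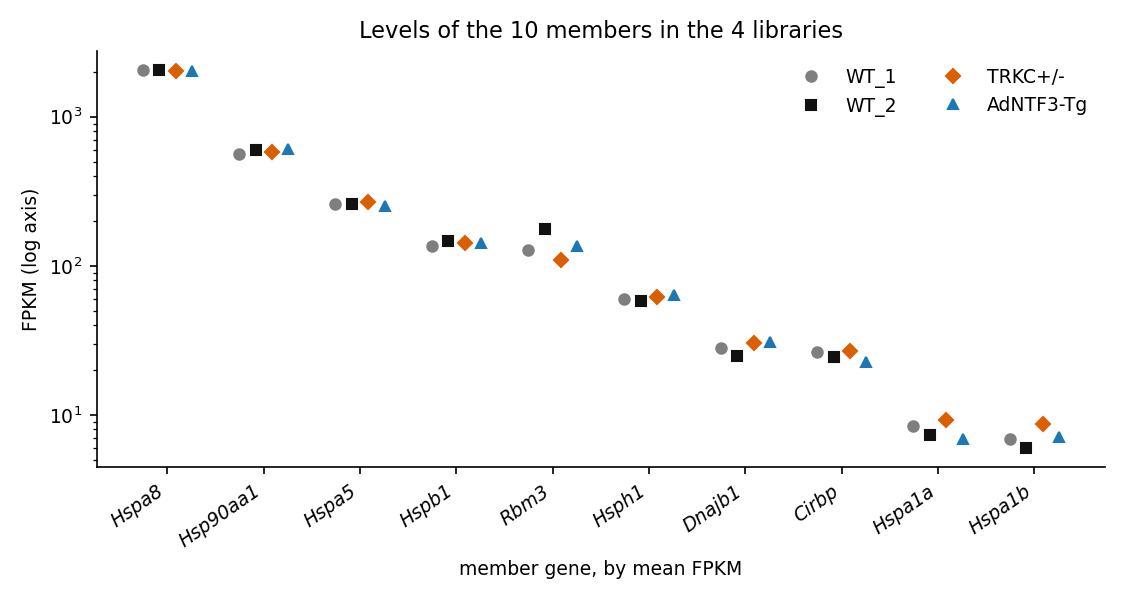
FPKM of the 10 genes in each library, on a log axis, with genes ordered by mean FPKM and 1 point per library. *Hspa8* stays near 2045 FPKM in all 4 libraries, while *Rbm3* runs from 110.0 in TRKC+/- to 177 in WT_2.

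*Rbm3*, the X-linked cold-inducible RNA-binding protein gene, varied most. Its level was 128 FPKM (1399 reads) in WT_1, 177 (1926) in WT_2, 110.0 (1244) in TRKC+/- and 136 (1493) in AdNTF3-Tg. The highest and the second lowest of these values were the 2 WT pools, with the library labelled TRKC+/- below both and AdNTF3-Tg between them. WT_2 exceeded WT_1 by a log2 FPKM ratio of 0.47, and 3.23% of the 9223 genes averaging 5 FPKM or more differed more between the WT pools. The exact counting interval (95%, Clopper-Pearson, counting error only) was 0.33 to 0.53. Here and below these intervals are of reads per library total, and need not be centred on the FPKM ratio beside them. The length listed for *Rbm3*, which enters FPKM, was 1311.08 in WT_1, 1295.75 in WT_2, 1329.47 in TRKC+/- and 1315.41 in AdNTF3-Tg. TRKC+/- had a log2 ratio of -0.22 (-0.32 to -0.10) to WT_1 and -0.69 (-0.74 to -0.53) to WT_2. AdNTF3-Tg had 0.09 (-0.04 to 0.18) to WT_1, an interval that spans 0, and -0.38 (-0.46 to -0.26) to WT_2. Neighbours in the order of levels were separated by more than counting error except WT_1 and AdNTF3-Tg, and the difference between the pools of the same genotype was larger than 3 of these 4 mutant ratios. WT_2 was also the pool with the lowest muscle and blood marker sums, whose part in the *Rbm3* level was not tested.

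The 3 genes closest to *Rbm3* in pattern over the 4 libraries were taken from 9222 that averaged 5 FPKM or more, by the Euclidean distance of mean-centred log2 FPKM. They were *Smim8* (0.07), *Id2* (0.08), a dominant negative helix-loop-helix regulator, and *Grcc10* (0.08). *Id2*, for example, had 12.6, 16.9, 10.7 and 13.9 FPKM in WT_1, WT_2, TRKC+/- and AdNTF3-Tg. With 4 libraries this is a description of likeness and no more.

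*Cirbp*, the paralogue of *Rbm3* on chromosome 10, was steadier and less abundant. It had 26.4 FPKM (276 reads) in WT_1, 24.3 (256) in WT_2, 26.8 (285) in TRKC+/- and 22.6 (236) in AdNTF3-Tg. The library labelled TRKC+/- was above both WT pools and AdNTF3-Tg below both, and all 5 counting intervals against a WT pool or between the WT pools spanned 0. Between the mutants, AdNTF3-Tg had -0.25 (-0.51 to -0.0037) to TRKC+/-, an interval that excluded 0, as in 22.3% of all genes. The ratio of *Rbm3* to *Cirbp* FPKM was 4.85 in WT_1, 7.28 in WT_2, 4.11 in TRKC+/- and 6.02 in AdNTF3-Tg, the same order of libraries as for *Rbm3* alone.

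The inducible HSP70 genes were the lowest of the 10 members in all libraries, near the median gene, which lay between 6.64 and 6.95 FPKM. *Hspa1a* had 8.45, 7.39, 9.21 and 6.86 FPKM and *Hspa1b* 6.89, 5.99, 8.72 and 7.10 FPKM in WT_1, WT_2, TRKC+/- and AdNTF3-Tg. Both were highest in the library labelled TRKC+/-. AdNTF3-Tg was below both WT pools for *Hspa1a* and above both for *Hspa1b*, and *Hspa1a* held 55.0% of the reads of the pair in WT_1, 55.1% in WT_2, 51.3% in TRKC+/- and 49.0% in AdNTF3-Tg. Summed, the pair had 15.3, 13.4, 17.9 and 14.0 FPKM, with AdNTF3-Tg between the WT pools. Satellite glia markers had the same order of libraries (summed FPKM of 2429 in WT_1, 2117 in WT_2, 2449 in TRKC+/- and 2213 in AdNTF3-Tg), as had Schwann cell markers (743, 716, 770.3 and 732), and their part in the level of the pair was not tested. The sum in TRKC+/- had a log2 ratio of 0.22 (counting interval 0.01 to 0.42) to WT_1 and 0.42 (0.22 to 0.64) to WT_2, and that of WT_2 to WT_1 was -0.20 (-0.43 to 0.01). Between the mutants, AdNTF3-Tg had -0.36 (-0.57 to -0.16) to TRKC+/-.

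*Hspb1*, the small heat shock protein HSP27 that is plentiful in peripheral neurons, had 135 FPKM (1012 reads) in WT_1, 146 (1090) in WT_2, 143 (1085) in TRKC+/- and 141 (1052) in AdNTF3-Tg. Both mutants lay between the WT pools, and all counting intervals spanned 0.

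**Figure D2:**
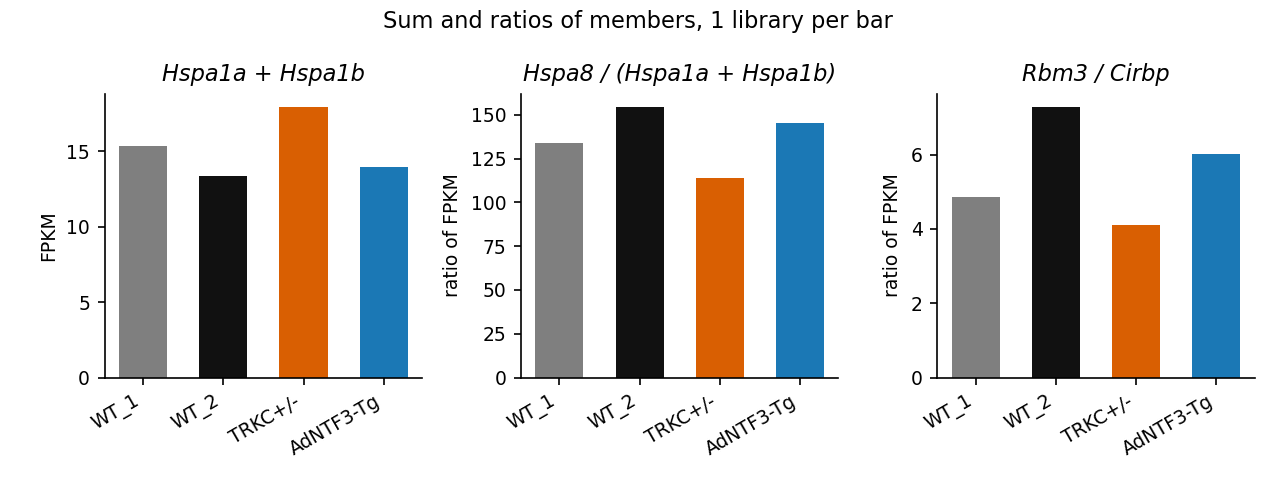
Bars from 0 show, for each library, the summed FPKM of *Hspa1a* and *Hspa1b*, the ratio of *Hspa8* to that sum, and the ratio of *Rbm3* to *Cirbp*. The library labelled TRKC+/- has the highest sum, 17.9 FPKM, and the lowest values of both ratios, 114 and 4.11.

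*Hspa8*, the constitutive HSP70, was the steadiest of the set. It had 2049.7 FPKM (36559 reads) in WT_1, 2066 (37262) in WT_2, 2038 (37108) in TRKC+/- and 2029 (36399) in AdNTF3-Tg, a range of 0.03 on the log2 scale. Both mutants were below both WT pools, by at most 0.03. *Hspa8* exceeded the summed inducible pair by 134-fold in WT_1, 154-fold in WT_2, 114-fold in TRKC+/- and 145-fold in AdNTF3-Tg.

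*Hsp90aa1*, the more stress-inducible of the cytosolic HSP90 genes, had 559.6 FPKM in WT_1, 595 in WT_2, 582 in TRKC+/- and 605 in AdNTF3-Tg. The library labelled TRKC+/- lay between the WT pools and AdNTF3-Tg above both. On 13611 to 14846 reads per library, the counting interval of reads in WT_2 over WT_1 was 0.04 to 0.11. It did not reach 0, as in 20.5% of all genes, and the log2 FPKM ratio beside it was 0.09. *Hsp90ab1*, its constitutive partner, was more abundant, with an FPKM ratio of 2.04, 1.92, 2.03 and 1.92 to *Hsp90aa1* in WT_1, WT_2, TRKC+/- and AdNTF3-Tg.

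The co-chaperones followed a similar order to each other. *Dnajb1*, the J-domain partner HSP40 that delivers substrates to HSP70, had 28.1 FPKM (546 reads) in WT_1, 24.7 (485) in WT_2, 30.3 (600) in TRKC+/- and 31.0 (605) in AdNTF3-Tg. *Hsph1*, the HSP110 nucleotide exchange factor, had 60.4, 57.9, 62.1 and 64.0 FPKM. In both genes the order was WT_2, WT_1, TRKC+/- and AdNTF3-Tg from low to high. The *Dnajb1* intervals spanned 0 against WT_1 (0.11, -0.07 to 0.27, in TRKC+/- and 0.14, -0.04 to 0.29, in AdNTF3-Tg) and did not against WT_2 (0.29, 0.12 to 0.47, and 0.33, 0.15 to 0.50). The same held for *Hsph1*, with log2 ratios to WT_2 of 0.10 (0.01 to 0.20) and 0.14 (0.05 to 0.24).

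*Hspa5*, the endoplasmic reticulum HSP70 BiP, had 261 FPKM (5685 reads) in WT_1, 258 (5691) in WT_2, 266 (5921) in TRKC+/- and 253 (5539) in AdNTF3-Tg. The library labelled TRKC+/- was above both WT pools and AdNTF3-Tg below both, each by at most 0.04 on the log2 scale.

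Set against each WT pool, no member passed a log2 ratio of 0.5, the cutoff of the study's methods, in the same direction against both. That held for 0 of 10 in TRKC+/-, against 4.27% of all 15275 genes, and for 0 of 10 in AdNTF3-Tg, against 5.7%. Against WT_2 alone, 2 of 10 passed in TRKC+/- (*Rbm3*, and *Hspa1b* at 0.53), against 12.7% of all genes. The sum of *Hspa1a* and *Hspa1b* was at 0.42 in that pair and did not pass, so the pass of *Hspa1b* rests on how shared reads were divided. The count was 0 of 10 in TRKC+/- against WT_1 (10.7% of all genes), in AdNTF3-Tg against WT_1 (13.9%) and WT_2 (13.3%), and in AdNTF3-Tg against TRKC+/- (13.1%). Between the WT pools, 0 of 10 passed, against 13.4% of all genes. Of the genes that passed, 653 in TRKC+/- and 871 in AdNTF3-Tg, 209 and 332 averaged 1 FPKM or more, a level that all 10 members exceeded in each library.

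**Figure D3:**
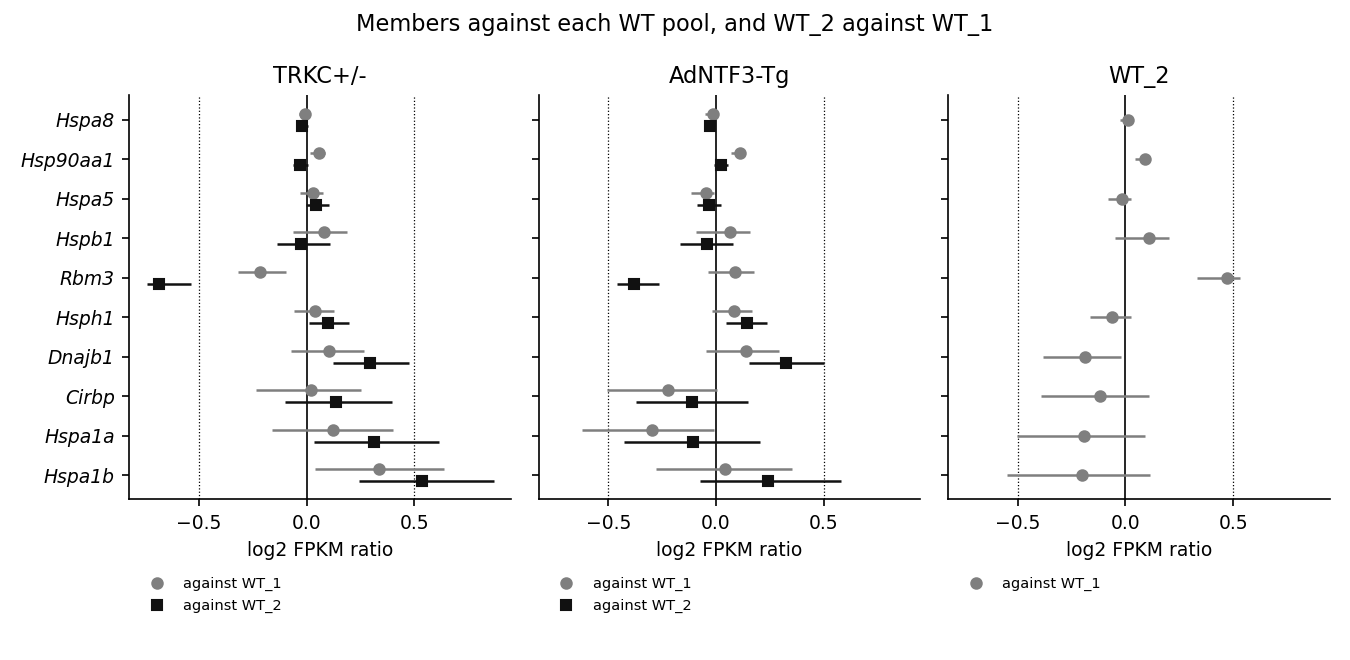
Log2 ratio of FPKM (points) with the exact 95% counting interval of the reads (lines) for each member in TRKC+/- and AdNTF3-Tg against WT_1 and WT_2, and in WT_2 against WT_1. Dotted lines mark 0.5 in either direction. *Rbm3* in TRKC+/- against WT_2 (-0.69) and *Hspa1b* in the same pair (0.53, uncertain because reads are shared with *Hspa1a*, and 0.42 for their sum) are the points beyond them.

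Counting intervals excluded 0 for 3 of 10 members in TRKC+/- against WT_1 (14.2% of all genes) and 5 against WT_2 (19.8%). In AdNTF3-Tg they excluded 0 for 4 against WT_1 (25.9%) and 4 against WT_2 (20.7%). Between pools of the same genotype they did so for 3 (*Rbm3*, *Hsp90aa1* and *Dnajb1*), against 20.5%, and between AdNTF3-Tg and TRKC+/- for 6, against 22.3%. Most members are more abundant than most genes, which narrows their intervals, so these shares are not like for like. Of the 10 members, 6 were above both WT pools in TRKC+/- and 2 below, against 62.6% of all genes outside the WT range in either direction, and 4 were above and 4 below in AdNTF3-Tg, against 67.6%.

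Each mutant was then tested against both WT pools together with edgeR's quasi-likelihood test across 14156 genes. The mutants have 1 library each, so the test takes its spread from the WT pools (1 residual degree of freedom before moderation) and assumes that a mutant pool varies like them. With Benjamini-Hochberg adjustment, 0 of 10 members passed in TRKC+/-, where 0.00706% of all genes did, a single gene, *Ucp1*, which encodes the brown adipocyte uncoupling protein and was named after its values were seen (47.3, 48.1, 7.80 and 37.8 FPKM in WT_1, WT_2, TRKC+/- and AdNTF3-Tg). Without the filter on low counts *Ucp1* kept a log2 fold change of -2.62 but had an edgeR adjusted p of 0.972, so no gene was called. At an unadjusted p under 0.05 there were 2 of 10 members by edgeR (1.93% of all genes) and 0 by DESeq2, which also called 0 after adjustment. In AdNTF3-Tg 0 of 10 passed (0.0% of all genes), with 0 at an unadjusted p under 0.05 (5.88% of all genes) and 0 by DESeq2 with or without adjustment.

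The 2 members below the unadjusted threshold were *Rbm3* and *Hspa1b*. *Rbm3* had a log2 fold change of -0.44 (SE 0.17, 95% interval -0.83 to -0.05) in TRKC+/-, with an edgeR p of 0.0313 before and 0.9993 after adjustment. That value was -0.20 without WT_2 and -0.65 without WT_1, each with no test. *Hspa1b* had 0.44 (SE 0.18, 0.02 to 0.86), with an edgeR p of 0.0411 before and 0.9993 after adjustment. Summed with *Hspa1a* before the fit, the pair had 0.32 (SE 0.14, -0.01 to 0.64) in TRKC+/-, edgeR adjusted p = 0.9993, and -0.04 (SE 0.14, -0.37 to 0.30) in AdNTF3-Tg, edgeR adjusted p = 0.9677. The largest values in AdNTF3-Tg were 0.23 for *Dnajb1* (-0.06 to 0.52) and -0.21 for *Hspa1a* (-0.62 to 0.21), and edgeR's adjusted p over the members there ran from 0.8173 to 0.9995.

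The intervals say how large a difference these libraries leave possible. For *Hspa8* the 95% interval was -0.12 to 0.09 in TRKC+/- and -0.12 to 0.08 in AdNTF3-Tg, for *Hsp90aa1* -0.14 to 0.15 and -0.07 to 0.21, and for *Hspa5* -0.11 to 0.18 and -0.19 to 0.11. For *Cirbp* it was wider, -0.27 to 0.42 and -0.53 to 0.18. The median fold change of the members was 0.05 in TRKC+/- and -0.01 in AdNTF3-Tg, and that of all genes tested was -0.0019 and -0.0013.

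**Figure D4:**
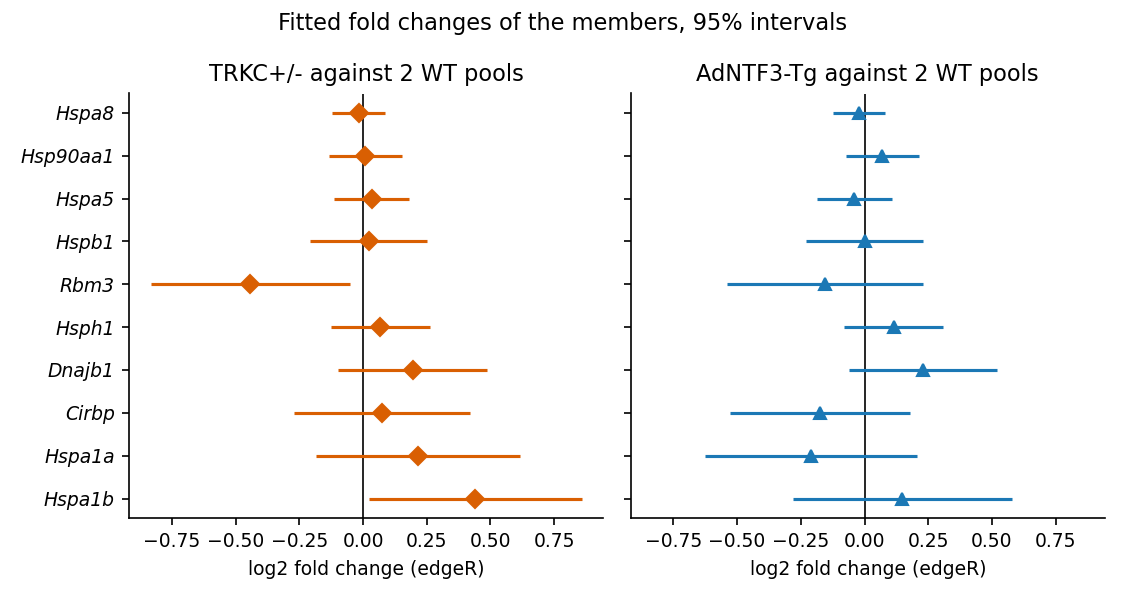
Log2 fold changes from edgeR (points) with 95% intervals (lines) for each member, each mutant library against the 2 WT pools. In TRKC+/- the intervals of *Rbm3* (-0.83 to -0.05) and *Hspa1b* (0.02 to 0.86) leave out 0 before adjustment, though *Rbm3* was at -0.20 without WT_2 and *Hspa1b* is uncertain (-0.01 to 0.64 for its sum with *Hspa1a*), and all 10 intervals in AdNTF3-Tg include it.

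The rest of the chaperone network was described from 7 further lists, and no gene of them passed edgeR's test with adjustment in either comparison. Over these and 2 more lists, which hold 138 listed genes, 137 were tested, with 2 at an unadjusted p under 0.05 in TRKC+/- (1.46%, against 1.93% of all genes) and 1 in AdNTF3-Tg (0.73%, against 5.88%), and 0 by DESeq2 with or without adjustment. The genes named are those furthest from the WT pools in each list, with values that did not pass the test. Beside each list's count of genes outside the WT range, 4866 of all 15275 genes were above both WT pools and 4698 below both in TRKC+/-, and 5145 above and 5186 below in AdNTF3-Tg.

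Among 10 other HSP70 and HSP110 genes, the median log2 ratio to the WT pools was 0.03 in TRKC+/- and 0.05 in AdNTF3-Tg, with 4 above both WT pools and 2 below both in TRKC+/- and 6 above and 2 below in AdNTF3-Tg. *Hyou1*, the HSP110 relative of the endoplasmic reticulum, had 42.2 FPKM in WT_1, 42.3 in WT_2, 46.0 in TRKC+/- and 46.8 in AdNTF3-Tg, above both WT pools in each mutant. *Hspa13* had 11.6, 12.4, 12.2 and 14.1 FPKM, and *Hspa2* 21.8, 24.3, 20.7 and 21.3. Among 12 other HSP90 and co-chaperone genes the medians were 0.04 and 0.01, with 5 above and 3 below in TRKC+/- and 5 above and 4 below in AdNTF3-Tg. *Chordc1*, an HSP90 co-chaperone, had 22.7, 28.7, 21.2 and 31.8 FPKM in WT_1, WT_2, TRKC+/- and AdNTF3-Tg, outside the WT range in opposite directions. *Ahsa1*, the activator of the HSP90 ATPase, had 86.6, 83.9, 94.8 and 87.4 FPKM, and *Ptges3*, which encodes p23, 67.7, 84.8, 80.8 and 84.9.

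Among 17 other J-domain genes the medians were 0.02 and 0.05, with 5 above and 5 below both WT pools in TRKC+/- and 9 above and 5 below in AdNTF3-Tg. *Dnajb14* had 7.48, 4.50, 3.70 and 4.33 FPKM in WT_1, WT_2, TRKC+/- and AdNTF3-Tg, where WT_1 stood above the other 3 libraries. *Dnajb12* had 13.0, 14.5, 15.8 and 16.4 FPKM, and *Dnajb5* 14.8, 13.9, 12.6 and 11.6. Of 7 other small heat shock protein genes 6 were listed, with medians of 0.21 and -0.05 and a WT_2 to WT_1 median of -0.34. Skeletal muscle, blood, macrophage, adipocyte, satellite glia and Schwann cell markers also had negative WT_2 to WT_1 medians, of -4.12, -1.11, -0.25, -0.19, -0.17 and -0.11. Those of sympathetic neuron, endothelial and sensory neuron markers were 0.04, 0.04 and -0.01. The part of these cell types in this list was not tested. Of the 6 genes, 4 were above and 1 below in TRKC+/- and 2 above and 3 below in AdNTF3-Tg. *Hspb8* was the most abundant, at 194, 199, 192 and 183 FPKM, followed by *Cryab* at 75.7, 74.3, 83.7 and 69.7. *Hspb6* had 5.96, 4.72, 7.30 and 4.06 FPKM. *Hspb3* alone passed the log2 cutoff of 0.5 against both WT pools, in each mutant, on 6 reads or fewer per library, which is too few to read.

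Among 10 chaperonin genes, which fold actin and tubulin in the cytosol or work as HSP60 and HSP10 in mitochondria, the medians were -0.04 and -0.05. In TRKC+/- 1 was above and 6 were below both WT pools, and in AdNTF3-Tg 2 were above and 8 below. *Cct3* had 183, 173, 165 and 159 FPKM in WT_1, WT_2, TRKC+/- and AdNTF3-Tg, *Tcp1* 148, 140.1, 135 and 139, and *Hspe1* (HSP10) 94.7, 94.3, 100.02 and 106. The 14 heat shock factor, nucleotide exchange factor and BAG genes had medians of 0.02 and -0.02, with 5 above and 4 below in TRKC+/- and 4 above and 6 below in AdNTF3-Tg. *Hsf1*, heat shock factor 1 itself, had 14.7 FPKM (251 reads) in WT_1, 14.5 (251) in WT_2, 19.3 (337) in TRKC+/- and 16 (275) in AdNTF3-Tg. Its log2 fold change in TRKC+/- was 0.40 (SE 0.14), with an edgeR p of 0.0222 before and 0.9993 after adjustment. *Bag5* had 14.3, 15.5, 17.4 and 18.5 FPKM, and *Sil1*, the exchange factor of BiP, 21.9, 18.4, 19.4 and 16.3.

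The 25 genes of the endoplasmic reticulum unfolded protein response, which move with *Hspa5* in stressed cells, had medians of 0.04 and 0.00. *Dnajb9*, *Dnajb11*, *Dnajc3*, *Hsp90b1* and *Hyou1* are also in lists described above, so the counts of these lists overlap. In TRKC+/- 15 of 25 were above both WT pools and 5 below, and in AdNTF3-Tg 9 were above and 7 below. *Manf*, a secreted factor of this response, had 41.3, 38.7, 36.3 and 33.2 FPKM in WT_1, WT_2, TRKC+/- and AdNTF3-Tg, with a log2 fold change of -0.27 (SE 0.11) in AdNTF3-Tg and an edgeR p of 0.0404 before and 0.8173 after adjustment. *Creld2* had 15.4, 15.7, 17.9 and 12.9 FPKM, outside the WT range in opposite directions. *Sdf2l1* had 24.3, 18.0, 27.1 and 18.2 FPKM, so its WT pools differed by more than AdNTF3-Tg differed from WT_2.

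**Figure D5:**
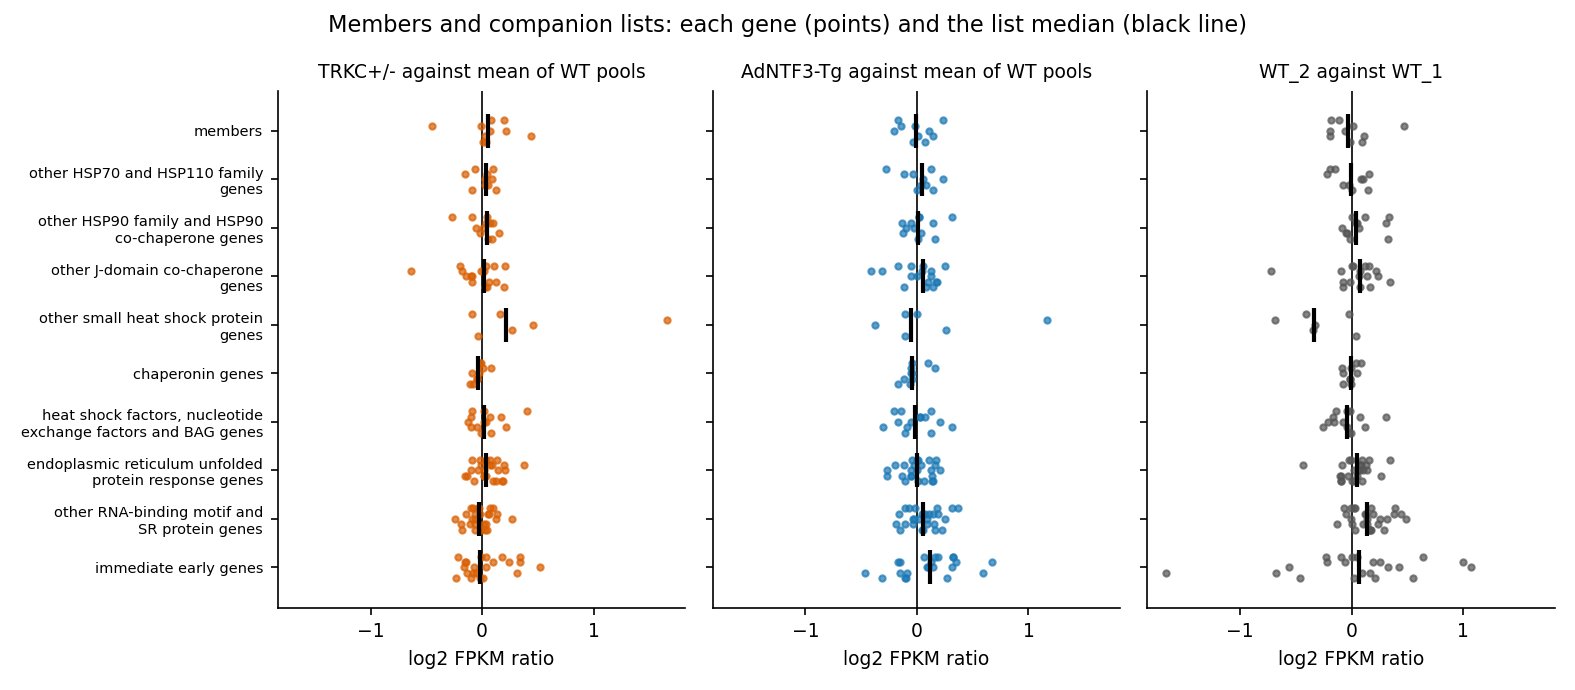
Log2 FPKM ratios of the members and of each companion list (1 point per gene, black line at the list median) for TRKC+/- and AdNTF3-Tg against the mean of the WT pools on the log2 scale, and for WT_2 against WT_1. The small heat shock protein genes have medians of 0.21, -0.05 and -0.34, the RNA-binding motif and SR genes 0.14 in the last panel and the immediate early genes 0.11 in AdNTF3-Tg, and the other list medians in the panels lie between -0.05 and 0.07.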

How the data were processed

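RNA was sequenced from 4 pooled SG libraries. The tables the authors deposited give, per gene, an expected count without normalization, in which reads mapping to several genes are divided, and an FPKM value scaled to gene length and library size. Per the labels, the processing used RSEM and mm10, whereas the study's methods name SOAPnuke, HISAT2 and mm9. Strand use in counting was not given in the sources used here. Expected counts were whole (within 1e-06) for 92.64–93.69% of genes. Symbols came from a RefSeq table of GRCm38.p6, which matched 17619 identifiers (99.73%).

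Counts were rounded and tested, two-sided, with edgeR (4.0.16; TMM, filterByExpr, quasi-likelihood), and with DESeq2 (1.42.0) as an alternative; the edgeR fit and the counting intervals were tested on simulated data. Log2 FPKM ratios used a pseudocount of 0.1 FPKM and genes listed in all 4 libraries. Exact 95% Clopper-Pearson intervals were of reads per library total and cover counting error only, as does a floor of 3 reads (0.337–0.346 CPM). The 2 WT pools were labelled as separate samples and gave the edgeR fit its 1 residual degree of freedom. Its spread was moderated over all genes tested (median prior degrees of freedom 6.79). No p-value measures a spread between pools of the same mutant. The members and lists were chosen with earlier results of these data known. Named companions are the 2 genes per list and comparison, averaging 5 FPKM or more, furthest from the WT pools, any gene called, and for members ranging by at least 0.5 on the log2 scale the 3 genes most like them.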

Additional observations from a re-analysis of the deposited data

How the results depend on the processing

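Of the 10 members, 0 were called in either comparison under RLE size factors, without the filter on low counts, under DESeq2 and with *Hspa1a* and *Hspa1b* summed. Of 116 member fold changes under alternatives, 113 kept their direction and side of the threshold or, with a WT pool left out, moved by less than the WT spread. *Hspb1* in AdNTF3-Tg went from 0.0003 to -4.205e-05 without the filter, a value near 0 either way. *Hspa8* moved to -0.03 in each mutant without WT replicate 1. With single WT pools left out, the edgeR fit has no residual degrees of freedom, so those are values with no test. Of 40 such values, 4 changed sign: without WT replicate 1, *Hsp90aa1* in TRKC+/- (0.01 to -0.04) and *Hspb1* in TRKC+/- (0.02 to -0.03) and AdNTF3-Tg (0.0003 to -0.05), and without WT replicate 2, *Rbm3* in AdNTF3-Tg (-0.16 to 0.09). *Rbm3* in TRKC+/- was -0.65 without WT replicate 1 and -0.20 without WT replicate 2. Members past the fold cutoff in TRKC+/- numbered 0 without WT replicate 2 and 2 (*Rbm3* and *Hspa1b*, the latter uncertain, with 0.42 for the *Hspa1a* and *Hspa1b* sum) without WT replicate 1.

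Counts over all genes depended more on the settings. In TRKC+/- 1 gene (*Ucp1*) was called, against 2 with RLE size factors, 0 without the filter and 2 with DESeq2. Genes past the cutoff against both WT pools numbered 653 in TRKC+/-, between 1632 and 1933 against a single WT pool, 105 with a pseudocount of 1, 209 among genes averaging 1 FPKM or more and 133 at a cutoff of 1. In AdNTF3-Tg the corresponding counts were 871, between 2033 and 2116, 165, 332 and 177. For WT_2 against WT_1 they were 2044, then 633, 926 and 534 with the pseudocount of 1, the minimum of 1 FPKM and the cutoff of 1. The cause was not tested. Centring moved the median of all genes by at most 0.01 on the log2 scale. No paired analysis was possible because each mutant has a single library and shares fewer than 2 replicate numbers with WT.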

Other observations

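Other genes of RNA binding and splicing were read beside *Rbm3* and *Cirbp*. Over 27 RNA-binding motif, SR and hnRNP genes, 0 passed edgeR's adjusted test in either comparison, and the median log2 ratio was -0.02 in TRKC+/-, 0.06 in AdNTF3-Tg and 0.14 for WT_2 against WT_1, where all genes had -0.01. In TRKC+/- 8 were above and 7 below both WT pools, and in AdNTF3-Tg 11 were above and 6 below. *Hnrnpa1*, a splicing repressor, had 87.8 FPKM in WT_1, 123 in WT_2, 99.7 in TRKC+/- and 124 in AdNTF3-Tg. *Srsf10* had 17.5, 22.9, 18.6 and 24.8 FPKM, *Srsf5* 88.8, 106, 81.7 and 97.9, and *Rbm45* 9.50, 10.4, 12.0 and 9.77. The first 3 were higher in WT_2 than in WT_1 by log2 ratios of 0.49, 0.39 and 0.25, beside 0.47 for *Rbm3*.

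In the list of immediate early genes, many but not all of which are transcribed within minutes of neuronal activity or stress, 22 of 22 genes were detected. Of them, 0 passed in either comparison. Their median log2 ratio was -0.02 in TRKC+/- and 0.11 in AdNTF3-Tg, with 4 above and 6 below both WT pools in the first and 10 above and 7 below in the second, and 7 of the 22 differed by at least 0.5 between the WT pools, against 13.4% of all genes. Of these 7, *Egr3* (12 and 3 reads in WT_1 and WT_2), *Egr2* (8 and 20), *Fosb* (21 and 46) and *Arc* (57 and 38) rested on few reads, and *Fos* (323 and 510), *Junb* (163 and 241) and *Klf2* (128 and 80) on more. *Jund* had 48.5 FPKM in each WT pool, 61.2 in TRKC+/- and 54.2 in AdNTF3-Tg, with a log2 fold change of 0.33 (SE 0.09) in TRKC+/- and an edgeR p of 0.0056 before and 0.9993 after adjustment. *Klf2* had 8.35, 5.17, 8.18 and 4.74 FPKM in WT_1, WT_2, TRKC+/- and AdNTF3-Tg, *Nr4a3* 6.97, 8.33, 6.89 and 9.75, and *Zfp36* 6.78, 5.79, 7.97 and 5.62.

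The 3 genes most like *Hspa1b* in pattern, itself uncertain because it shares reads with *Hspa1a* (their sum was 15.3, 13.4, 17.9 and 14.0 FPKM in WT_1, WT_2, TRKC+/- and AdNTF3-Tg), were the gene with Entrez identifier 20905, at 10.8, 9.02, 13.4 and 10.9 FPKM, *Dnajc30*, a mitochondrial J-domain gene, at 17.6, 15.6, 21.9 and 17.6, and *Carmil2* at 18.2, 15.9, 22.2 and 18.0.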
